A study of Homo sapiens with 27 samples.

Results

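DNA replication and S phase genes were followed through single, pair and triple knockdown of the VPS37 paralogs in DLD1 cells, a human colorectal carcinoma line. The set was 45 gene symbols named by function. Of these, 44 had a measurement among the 10470 genes of the deposited table, and 42 averaged 10 TPM or more across the 27 libraries and were tested. RPA3 was not analysed here, and POLE and POLE2 averaged under 10 TPM. VPS37A, VPS37B and VPS37C encode alternative subunits of ESCRT-I, a complex that sorts ubiquitinated membrane proteins at endosomes. Cells were transfected with siRNAs against all 3 paralogs (siVPS37ABC), against pairs (siVPS37AB, siVPS37AC, siVPS37BC), against 1 paralog (siVPS37A, siVPS37B, siVPS37C) or with a mix of non-targeting siRNAs (siCTRL), or were left non-transfected (NT), and were collected 72 h later. Each of the 9 groups had 3 replicates. A single siRNA sequence, labelled #1, stood for each paralog, and no other sequence against the same gene was analysed here. The amount of siRNA per group is not given in the sources used here.

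To copy its genome once per division, a cell loads the MCM2-7 helicase on origins in G1 with ORC, CDC6 and CDT1, then activates it at the G1/S boundary with CDC45, the GINS complex and MCM10. DNA polymerases, the sliding clamp PCNA and its loader RFC, the single-strand binding protein RPA and the ligase LIG1 then build the new strands from a supply of nucleotides. Many of these genes are transcribed under E2F factors, which bind short GC-rich words near the start site and are held in check by retinoblastoma proteins until cyclin-dependent kinases act. The study asked which transcripts change when the paralogs are removed one by one, in pairs or all together. In bulk RNA, fewer cells in S phase and less of each transcript per cell cannot be told apart.

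Expression was taken as TPM, parts of a library total of 1000000, from an amplicon panel that reads each transcript by a short stretch. The knockdowns were visible in each targeted library. In the 12 libraries that received its siRNA, VPS37A was at 2.52 to 10.2% of the siCTRL mean, VPS37B at 2.08 to 8.78% and VPS37C at 17.8 to 31.8%. Summed markers of colon epithelium lay between 7848 and 12580 TPM in every library, with VIL1 low at up to 3.82 TPM and the other 7 markers at 31.5 TPM or more. The few fibroblast, leukocyte and endothelial markers present in the table summed to at most 5.83, 13.5 and 7.37 TPM. Single markers did move in siVPS37ABC against siCTRL. Of 7 tested colon markers, EPCAM, KRT19 and CDH17 rose, by log2 differences of 0.34 ± 0.11, 0.63 ± 0.13 and 0.55 ± 0.14, and CDX2, a transcription factor of intestinal epithelium, fell, with a difference of -1.30 ± 0.18 (adjusted p = 1.06e-05). CDX2 fell in siVPS37AB as well, with a difference of -1.09 ± 0.18 (adjusted p = 0.000199). Among markers that averaged under 10 TPM, fitted without the filter on low values, the leukocyte genes CSF1R and CD68 rose, averaging 1.87 ± 0.249 and 5.78 ± 0.728 TPM in siVPS37ABC libraries and 0.0952 ± 0.0617 and 2.41 ± 0.331 TPM in siCTRL libraries (SD, n = 3 each), while the leukocyte gene CD14 and the fibroblast gene ACTA2 fell. The part of these changes in the differences of the replication genes was not tested. Batch in the labels equals the replicate number. Library names also end in a number that differs between groups: siCTRL carries 88, 88 and 603, siVPS37ABC carries 80, 84 and 88, and siVPS37AB carries 80, 84 and 89.

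The start regions of 5 genes that were lower in siVPS37ABC cells are shown because they hold the words through which E2F factors are known to act. They come from RefSeq on GRCh38.p14, run 5′ to 3′ on the gene's own strand and span 250 bases before to 50 bases after the start. Capitals mark a match to one of 4 words, TTTCCCGC, TTTGGCGC, TTTCGCGC or TTTGCCGC, on either strand. The regions are TYMS at chr18:657403-657702 (plus strand), GINS2 at chr16:85688905-85689204 (minus strand), CDT1 at chr16:88803539-88803838 (plus strand), MCM7 at chr7:100101348-100101647 (minus strand) and MCM3 at chr6:52284693-52284992 (minus strand).
TYMS: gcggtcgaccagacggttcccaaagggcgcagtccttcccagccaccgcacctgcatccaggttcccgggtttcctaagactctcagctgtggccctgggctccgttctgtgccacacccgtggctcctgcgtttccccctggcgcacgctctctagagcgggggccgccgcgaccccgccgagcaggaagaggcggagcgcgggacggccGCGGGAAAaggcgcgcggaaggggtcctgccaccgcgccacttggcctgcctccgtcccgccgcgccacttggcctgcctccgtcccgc
GINS2: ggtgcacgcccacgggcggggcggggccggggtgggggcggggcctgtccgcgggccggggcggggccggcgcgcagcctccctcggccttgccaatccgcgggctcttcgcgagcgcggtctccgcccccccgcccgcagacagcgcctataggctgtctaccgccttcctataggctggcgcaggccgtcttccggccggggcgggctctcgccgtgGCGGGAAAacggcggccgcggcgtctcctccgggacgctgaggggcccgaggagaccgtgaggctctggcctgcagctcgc
CDT1: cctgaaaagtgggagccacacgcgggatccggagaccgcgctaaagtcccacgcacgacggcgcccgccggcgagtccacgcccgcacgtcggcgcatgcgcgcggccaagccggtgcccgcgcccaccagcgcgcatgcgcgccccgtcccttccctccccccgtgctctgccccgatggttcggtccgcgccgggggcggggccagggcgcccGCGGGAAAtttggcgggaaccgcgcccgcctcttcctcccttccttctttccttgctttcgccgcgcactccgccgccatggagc
MCM7: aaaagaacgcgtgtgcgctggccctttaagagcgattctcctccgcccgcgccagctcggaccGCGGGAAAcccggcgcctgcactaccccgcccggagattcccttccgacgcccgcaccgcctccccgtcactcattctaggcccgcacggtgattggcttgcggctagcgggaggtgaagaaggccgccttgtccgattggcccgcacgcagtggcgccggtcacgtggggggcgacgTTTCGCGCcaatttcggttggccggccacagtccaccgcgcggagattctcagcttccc
MCM3: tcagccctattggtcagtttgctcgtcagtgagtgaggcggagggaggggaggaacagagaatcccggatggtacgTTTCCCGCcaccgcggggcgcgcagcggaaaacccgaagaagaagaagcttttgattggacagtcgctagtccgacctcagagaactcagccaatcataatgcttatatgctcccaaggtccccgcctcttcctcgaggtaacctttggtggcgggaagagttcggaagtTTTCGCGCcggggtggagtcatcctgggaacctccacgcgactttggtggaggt
In TYMS, GINS2 and CDT1 the word is GCGGGAAA, the reverse complement of TTTCCCGC, and its first base lies 39, 31 and 35 bases before the start. MCM7 holds the same word 187 bases before the start and TTTCGCGC 9 bases before it. MCM3 holds TTTCCCGC 174 bases before the start, and its TTTCGCGC begins 4 bases before the start and runs across it. A match describes the letters and does not show that a factor was bound.

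Part of the replication machinery was lower after triple knockdown. Compared with siCTRL, 11 of the 42 tested replication genes fell in siVPS37ABC cells and 0 rose, at an adjusted p under 0.05 (limma, Benjamini-Hochberg over all genes tested). They were TYMS, GINS2, CDT1, LIG1, CHAF1B, MCM7, MCM10, UHRF1, MCM3, PRIM1 and POLA2, with log2 differences between -0.76 and -0.45. Over all 6458 tested genes 21.9% were called in either direction, and 8.32% were called lower. The median log2 difference was -0.38 for the 42 replication genes and 0.03 for all genes tested, and 39 of the 42 had a negative difference, against 46.9% of all genes. At an unadjusted p under 0.05, 23 of the 42 were lower, as were 13.5% of all genes. For 19 of the 42 every siVPS37ABC library lay below every siCTRL library, a pattern seen in 14.4% of all genes. GINS3 alone among the 42 lay above siCTRL in every library, at 30.8, 30.0 and 32.6 TPM in siVPS37ABC libraries, against 28.8, 24.98 and 23.0 TPM in siCTRL libraries, with a log2 difference of 0.28 ± 0.15 (adjusted p = 0.202). Throughout, log2 differences are between means of log2(TPM + 1) over 3 libraries a group, first-named group minus second, ± SE.

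**Figure D1:**
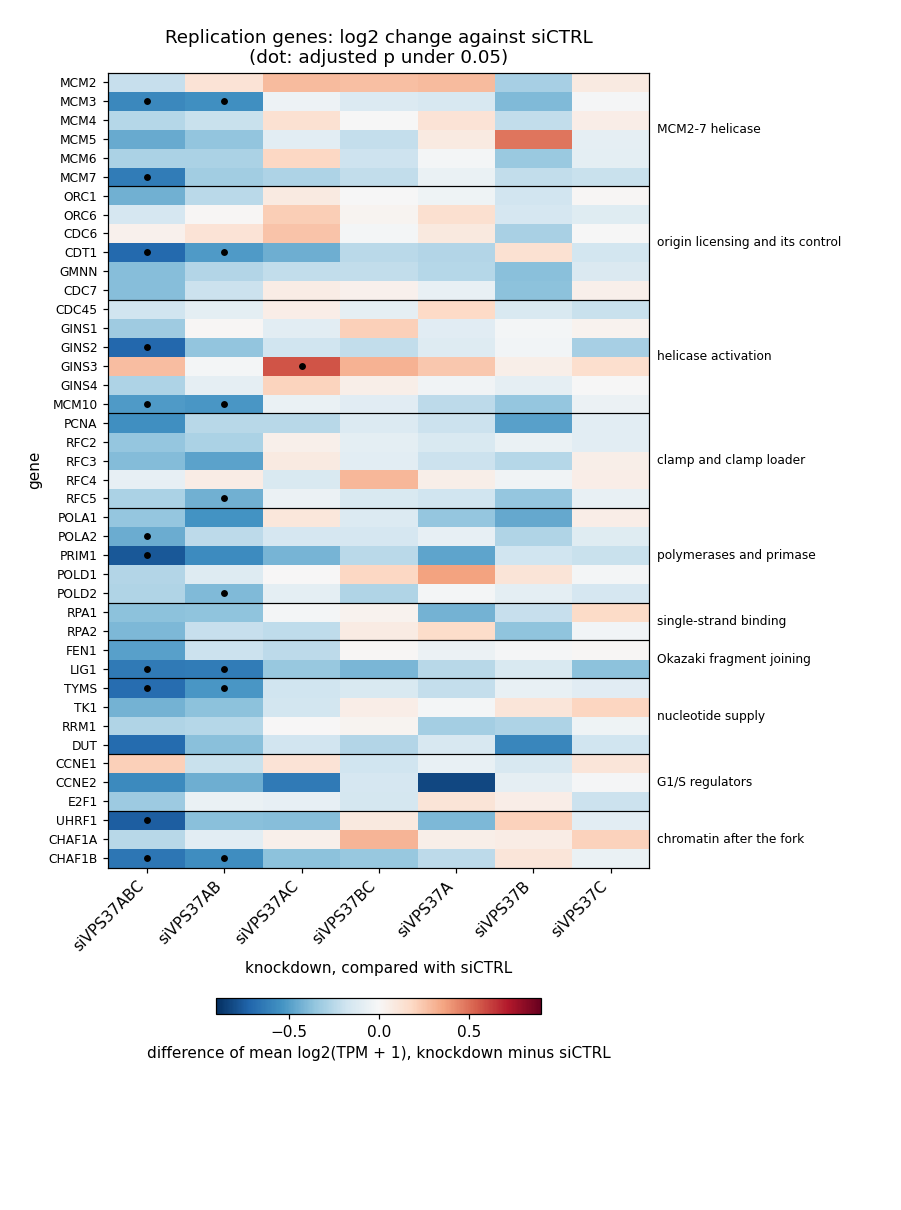
Log2 difference of mean log2(TPM + 1), knockdown minus siCTRL, for the 42 tested replication genes (down the page, grouped by role) in the 7 knockdowns (across), where blue is lower, red is higher and a dot marks an adjusted p under 0.05. The dots stand in 3 columns: 11 blue cells in siVPS37ABC, 8 blue cells in siVPS37AB and the red GINS3 cell in siVPS37AC.

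Of the 6 helicase subunits, 2 fell. MCM7 measured 189, 159 and 170.4 TPM in siVPS37ABC libraries, against 284, 245 and 273 TPM in siCTRL libraries. Each siVPS37ABC library lay below all 3 siCTRL libraries, and the log2 difference was -0.63 ± 0.15 (adjusted p = 0.00335). MCM3 measured 128, 131 and 145 TPM in siVPS37ABC libraries, against 178, 198 and 233 TPM in siCTRL libraries. Again the groups did not overlap, with a log2 difference of -0.58 ± 0.16 (adjusted p = 0.0121). The other subunits of the ring, MCM2, MCM4, MCM5 and MCM6, had differences of -0.21 ± 0.20, -0.26 ± 0.16, -0.45 ± 0.19 and -0.29 ± 0.13 and did not pass the test, so a fall of the whole ring was not shown.

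Among 6 genes of origin licensing and its control, CDT1, which loads the helicase together with CDC6, was the only one called. CDT1 measured 35.8, 30.6 and 23.4 TPM in siVPS37ABC libraries, against 47.5, 47.9 and 50.3 TPM in siCTRL libraries. The triple knockdown libraries were all lower than the controls, by a log2 difference of -0.70 ± 0.14 (adjusted p = 0.000592). CDC6 was not called, and its values were 86.4, 82.3 and 135 TPM in siVPS37ABC libraries, against 77.3, 96.3 and 119 TPM in siCTRL libraries. These ranges overlap almost completely, and the log2 difference was 0.04 ± 0.20 (adjusted p = 0.909). ORC1 and ORC6, subunits of the origin recognition complex, differed by -0.44 ± 0.19 and -0.15 ± 0.13. GMNN, the geminin that binds and blocks CDT1, differed by -0.38 ± 0.35 (adjusted p = 0.477), and CDC7, the kinase that fires licensed origins, by -0.38 ± 0.20 (adjusted p = 0.175).

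Helicase activation held 2 called genes of 6. GINS2, a subunit of the GINS complex, measured 35.2, 39.2 and 38.6 TPM in siVPS37ABC libraries, against 56.0, 68.8 and 61.8 TPM in siCTRL libraries. No library of one group reached the other, and the log2 difference was -0.70 ± 0.12 (adjusted p = 0.000148). MCM10, which helps to start the assembled helicase, measured 54.7, 58.8 and 55.8 TPM in siVPS37ABC libraries, against 75.2, 83.2 and 84.2 TPM in siCTRL libraries. The values were tight within each group and separate between them, with a log2 difference of -0.51 ± 0.12 (adjusted p = 0.00371). The other GINS subunits did not follow GINS2 past the threshold: GINS1 and GINS4 differed by -0.32 ± 0.20 and -0.28 ± 0.18, and GINS3 had the positive difference given above. CDC45, the third component of the active helicase, differed by -0.18 ± 0.17 (adjusted p = 0.504).

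At the fork, PRIM1 and POLA2 fell. PRIM1, the catalytic subunit of primase, measured 22.2, 30.5 and 28.9 TPM in siVPS37ABC libraries, against 37.0, 45.5 and 59.6 TPM in siCTRL libraries. The groups were separate although both spread widely, and the log2 difference was -0.76 ± 0.22 (adjusted p = 0.0134). POLA2, a regulatory subunit of DNA polymerase alpha, measured 31.4, 26.8 and 36.5 TPM in siVPS37ABC libraries, against 47.4, 40.4 and 41.4 TPM in siCTRL libraries. Its groups were separate by a small gap, and the difference of -0.45 ± 0.16 (adjusted p = 0.0498) lay just inside the threshold. POLA1, the catalytic subunit, differed by -0.35 ± 0.23 (adjusted p = 0.295), and the polymerase delta subunits POLD1 and POLD2 by -0.26 ± 0.21 and -0.27 ± 0.12. The polymerase epsilon subunits were low: POLE measured 4.67, 5.22 and 4.44 TPM in siVPS37ABC libraries, against 6.08, 4.70 and 7.23 TPM in siCTRL libraries, and POLE2 measured 5.74, 5.36 and 7.58 TPM in siVPS37ABC libraries, against 6.12, 10.3 and 12.8 TPM in siCTRL libraries. Both pairs of ranges overlapped, and without the filter on low values the log2 differences were -0.26 ± 0.25 (adjusted p = 0.495) and -0.53 ± 0.28 (adjusted p = 0.203).

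None of the 5 clamp and clamp loader genes was called, and 3 of the 5 had an unadjusted p under 0.05, all lower. PCNA, the sliding clamp, measured 253, 342 and 429 TPM in siVPS37ABC libraries, against 364, 494 and 655 TPM in siCTRL libraries. The ranges overlapped, both groups spread in the same order over the 3 batches, and within each batch the siVPS37ABC library was the lower one. Its log2 difference of -0.55 ± 0.26 (adjusted p = 0.128) did not pass the test without a batch term and did pass with one. The loader subunits RFC2, RFC3, RFC4 and RFC5 differed by -0.35 ± 0.15, -0.39 ± 0.26, -0.07 ± 0.17 and -0.29 ± 0.14. RPA1 and RPA2, which coat single-stranded DNA, differed by -0.37 ± 0.17 and -0.40 ± 0.19, both without overlap between the groups and both short of the threshold.

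Of the 2 genes that finish Okazaki fragments, LIG1, the ligase that seals them, fell. LIG1 measured 52.0, 69.0 and 57.2 TPM in siVPS37ABC libraries, against 87.0, 92.9 and 97.4 TPM in siCTRL libraries. All siVPS37ABC libraries were below all siCTRL libraries, with a log2 difference of -0.64 ± 0.14 (adjusted p = 0.00185). FEN1, the flap nuclease, averaged 56.9 ± 8.57 TPM in siVPS37ABC libraries and 79.9 ± 6.89 TPM in siCTRL libraries (SD, n = 3 each). These groups did not overlap either, but the difference of -0.49 ± 0.19 (adjusted p = 0.0636) missed the threshold.

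In nucleotide supply, TYMS, the thymidylate synthase that makes dTMP, fell with the smallest adjusted p of the 42 genes. TYMS measured 353, 358 and 356 TPM in siVPS37ABC libraries, against 523, 552 and 649 TPM in siCTRL libraries. The triple knockdown libraries lay within a few TPM of each other and well below the controls, with a log2 difference of -0.68 ± 0.12 (adjusted p = 0.000125). DUT, the dUTPase that supplies the substrate of TYMS, measured 35.6, 40.4 and 67.4 TPM in siVPS37ABC libraries, against 51.2, 75.5 and 108 TPM in siCTRL libraries. The ranges overlapped and the values differed between batches more than those of TYMS did, and a difference of similar size, -0.69 ± 0.29 (adjusted p = 0.0855), was not called. The thymidine kinase TK1 differed by -0.42 ± 0.17 (adjusted p = 0.074), and RRM1, the large subunit of ribonucleotide reductase, by -0.27 ± 0.18 (adjusted p = 0.297).

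Chromatin genes that act behind the fork held 2 called genes of 3. UHRF1, which reads hemimethylated DNA and brings in the maintenance methyltransferase, measured 48.0, 41.8 and 33.6 TPM in siVPS37ABC libraries, against 74.8, 64.6 and 66.9 TPM in siCTRL libraries. The groups were separate, with a log2 difference of -0.74 ± 0.18 (adjusted p = 0.00378). CHAF1B, a subunit of the histone chaperone CAF-1, measured 12.7, 15.2 and 16.2 TPM in siVPS37ABC libraries, against 21.3, 23.4 and 26.0 TPM in siCTRL libraries. All of its triple knockdown values were lower, with a log2 difference of -0.65 ± 0.15 (adjusted p = 0.00263). Its partner CHAF1A measured 57.8, 54.9 and 43.5 TPM in siVPS37ABC libraries, against 56.4, 61.6 and 67.1 TPM in siCTRL libraries, and with overlapping groups and a difference of -0.25 ± 0.15 (adjusted p = 0.238) it was not called. The 3 regulators of the G1/S step had 0 called genes in limma and 0 at an unadjusted p under 0.05: cyclin E1, CCNE1, differed by 0.21 ± 0.20 (adjusted p = 0.49), cyclin E2, CCNE2, by -0.57 ± 0.30 (adjusted p = 0.192), and E2F1 by -0.33 ± 0.19 (adjusted p = 0.222).

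**Figure D2:**
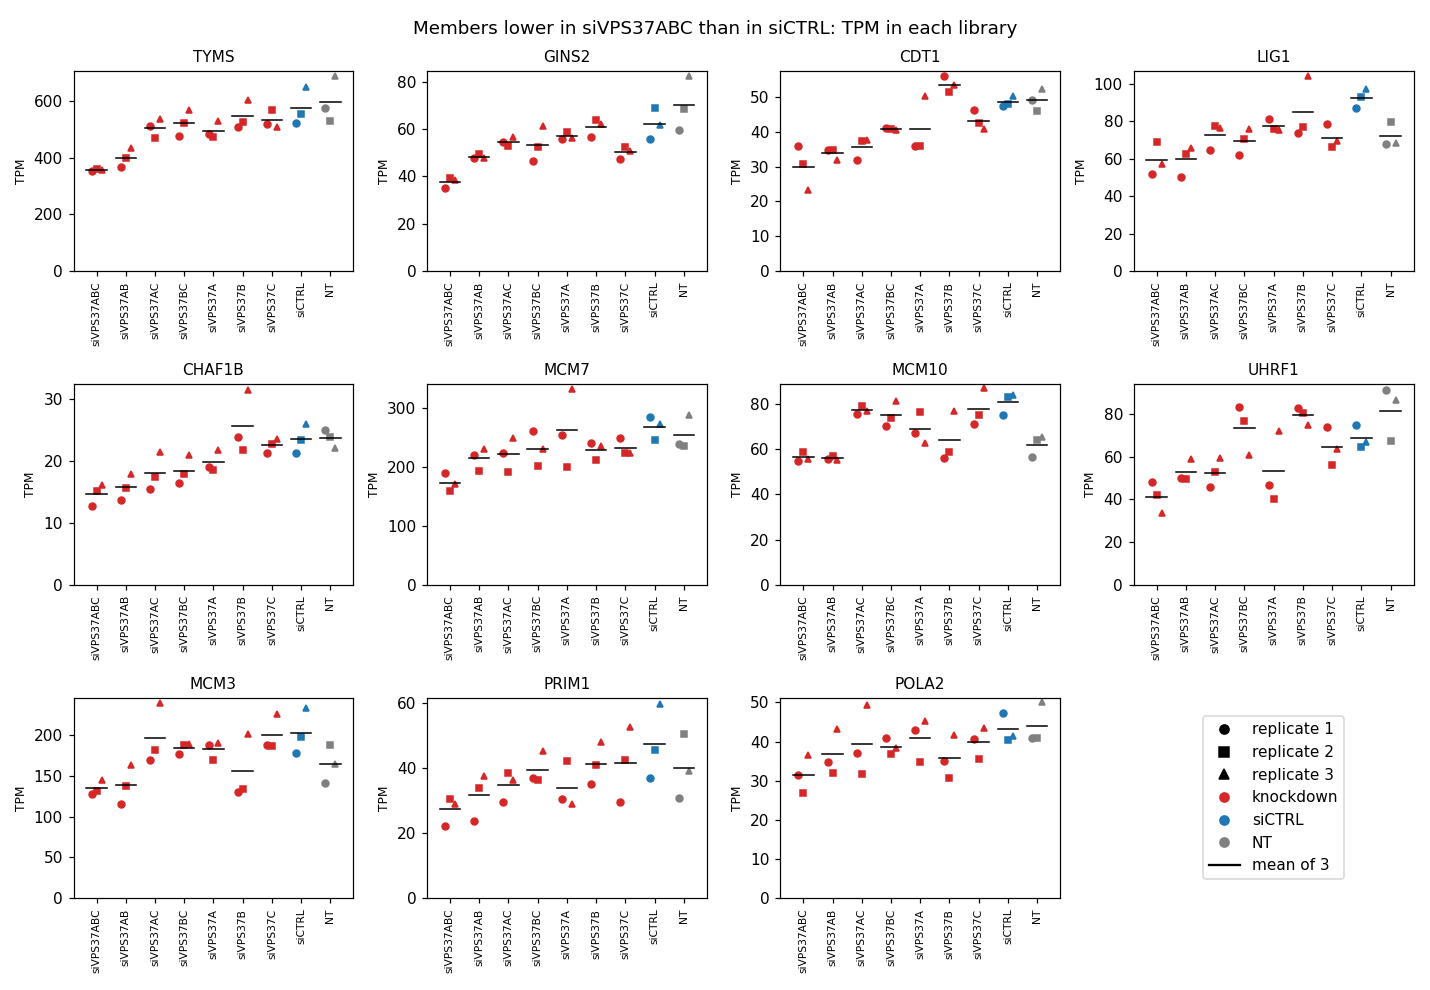
TPM on a linear axis from 0 in each of the 27 libraries for the 11 replication genes called lower in siVPS37ABC against siCTRL; points are libraries, shapes are replicates 1 to 3, red is a knockdown, blue siCTRL, grey NT, and the line is the mean of 3. In each panel the 3 siVPS37ABC points lie below the 3 siCTRL points, while LIG1, MCM10, MCM3 and PRIM1 in NT reach closer to siVPS37ABC.

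The fall was present in each batch. The median difference of the 42 genes between the siVPS37ABC and siCTRL libraries of batch 1, 2 and 3 was -0.46, -0.36 and -0.43 on the log2 scale, and 32 of the 42 (76.2%) were lower in all 3 batches, against 27.3% of all genes tested. With batch as a block in the model, 21 replication genes fell, the 11 named and CCNE2, CDC7, DUT, FEN1, MCM6, ORC1, PCNA, RFC2, RPA1 and TK1, while 33.1% of all genes were called and 13.6% were called lower. Against NT in place of siCTRL, 13 fell and CDC6 and ORC6 rose, where 25.3% of all genes were called in either direction, and 4 of the 11 were not called. Of those, MCM3, MCM10 and LIG1 had less than 0.5 times the difference they had against siCTRL, at -0.28 ± 0.16 (adjusted p = 0.221), -0.13 ± 0.12 (adjusted p = 0.477) and -0.28 ± 0.14 (adjusted p = 0.159), while PRIM1 was at -0.52 ± 0.22 (adjusted p = 0.0844). With the library number as a term, 14 fell (9.45% of all genes did) and CCNE1 rose, and MCM3, POLA2 and PRIM1 were not called (adjusted p = 0.12, 0.328 and 0.0733). Library number 88 alone was shared by the 2 groups. The median over the 42 genes of 1 siVPS37ABC minus 2 siCTRL libraries was -0.21 there, against 0.14 for all genes. In that comparison 27 of 42 were lower. That siVPS37ABC library was of batch 3 and the siCTRL libraries of batches 1 and 2, so this difference also crosses batches. Over all groups, the median deviation of the 42 genes from the group mean was -0.09, -0.04 and 0.12 in batches 1, 2 and 3. Without siCTRL replicate 3, MCM3 and PRIM1 lost their call (adjusted p = 0.0761 and 0.0947), and without siVPS37ABC replicate 1 PRIM1 did (adjusted p = 0.0733). POLA2 was called in none of the fits that left out a siCTRL library, siVPS37ABC replicate 1 or siVPS37ABC replicate 2.

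**Figure D3:**
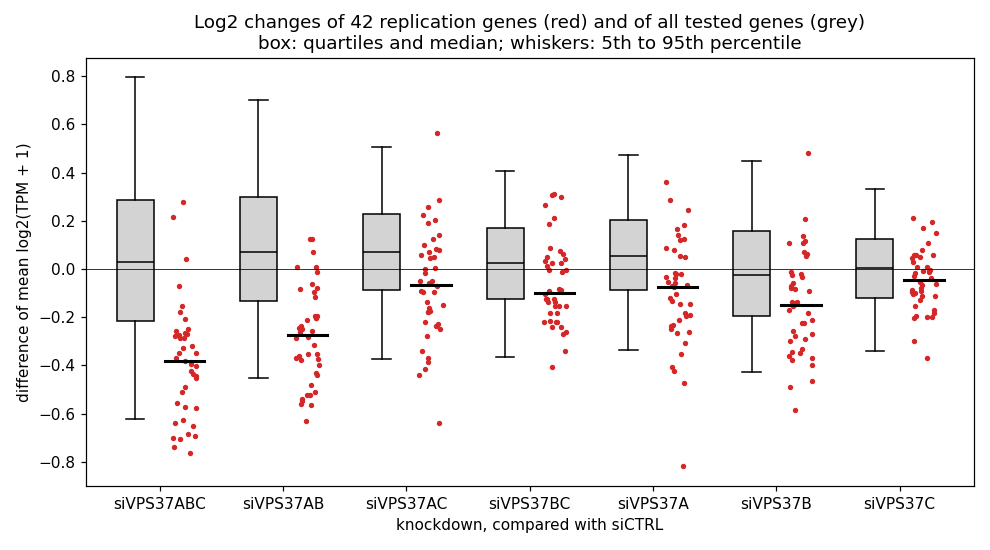
Log2 difference of mean log2(TPM + 1), knockdown minus siCTRL, for the 7 knockdowns; grey boxes give the quartiles and median of all 6458 tested genes with whiskers at the 5th and 95th percentiles, red points are the 42 replication genes and the black line is their median. The line lies at -0.38 in siVPS37ABC and -0.27 in siVPS37AB and between -0.15 and -0.05 in the other 5, which share the same 3 siCTRL libraries.

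Removing VPS37A and VPS37B together lowered genes of licensing, the fork and nucleotide supply. In siVPS37AB cells 8 of 42 replication genes fell and 0 rose compared with siCTRL (limma), while 14.8% of all genes were called and 3.61% were called lower. The median log2 difference was -0.27 for the replication genes and 0.07 for all genes. LIG1 measured 50.4, 62.8 and 65.9 TPM in siVPS37AB libraries, against the siCTRL values above, a log2 difference of -0.63 ± 0.14 (adjusted p = 0.00355). TYMS measured 366, 398 and 432 TPM in siVPS37AB libraries, a difference of -0.52 ± 0.12 (adjusted p = 0.00339). MCM10 measured 55.6, 57.1 and 55.2 TPM, a difference of -0.52 ± 0.12 (adjusted p = 0.00535). In all 3 genes the siVPS37AB libraries lay wholly below siCTRL. CHAF1B stood at 13.6, 15.6 and 17.9 TPM in siVPS37AB libraries, with a difference of -0.56 ± 0.15 (adjusted p = 0.0132). CDT1 stood at 34.8, 34.8 and 31.9 TPM, with a difference of -0.51 ± 0.14 (adjusted p = 0.0139). MCM3 stood at 116, 137 and 163 TPM, with a difference of -0.55 ± 0.16 (adjusted p = 0.0238). These groups too were separate from siCTRL, and these 6 genes were also on the triple knockdown list, which uses the same siCTRL libraries.

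POLD2 and RFC5 were called in siVPS37AB and not in siVPS37ABC. POLD2, a subunit of polymerase delta, measured 421, 478 and 399 TPM in siVPS37AB libraries, against 567, 590.1 and 552 TPM in siCTRL libraries, with a log2 difference of -0.40 ± 0.12 (adjusted p = 0.0283). RFC5, a clamp loader subunit, measured 38.9, 44.2 and 37.3 TPM in siVPS37AB libraries, against 50.9, 58.4 and 54.0 TPM in siCTRL libraries, with a difference of -0.43 ± 0.14 (adjusted p = 0.0321). Neither gene overlapped between the groups, and neither differed past the threshold between siVPS37ABC and siVPS37AB at 0.13 ± 0.12 (adjusted p = 0.888) and 0.14 ± 0.14 (adjusted p = 0.877). By batch the median differences of the 42 genes were -0.37, -0.29 and -0.30, and the batch block raised the count to 13, all lower, where 7.53% of all genes were called lower. Against NT in place of siCTRL, 10 fell and CDC6 and ORC6 rose, where 19.0% of all genes were called in either direction. LIG1, MCM10 and MCM3 then lost their call, at -0.27 ± 0.14 (adjusted p = 0.198), -0.14 ± 0.12 (adjusted p = 0.465) and -0.25 ± 0.16 (adjusted p = 0.313), and GINS2, MCM5, MCM6, TK1 and UHRF1 were called lower. CDC6 and ORC6 rose by 0.61 ± 0.20 (adjusted p = 0.0288) and 0.53 ± 0.13 (adjusted p = 0.00512). The count against siCTRL rested partly on single libraries: it was 3 without siCTRL replicate 3, 5 without siCTRL replicate 2, 4 without siVPS37AB replicate 1 and 5 without siVPS37AB replicate 3. No library number is shared between siVPS37AB and siCTRL.

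The other knockdowns moved few or none of these genes. In siVPS37AC cells 1 of 42 was called, where 4.4% of all genes were called and 3.07% were called higher: GINS3, a GINS subunit, measured 33.2, 38.5 and 43.4 TPM in siVPS37AC libraries, against 28.8, 24.98 and 23.0 TPM in siCTRL libraries. The groups were separate, with a log2 difference of 0.56 ± 0.15 (adjusted p = 0.0324). That call was lost without siCTRL replicate 2 or 3 and without siVPS37AC replicate 2 or 3. With the batch block 4 genes and 11.8% of all genes were called, GINS3 higher and CCNE2, CDT1 and CHAF1B lower. The median of the 42 genes was -0.07, against 0.07 for all genes. In siVPS37BC cells limma called 0 of 42, with 5 at an unadjusted p under 0.05, while 1.29% of all genes were called and 12.4% had such an unadjusted p, and the median was -0.10.

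Single knockdowns gave 0 called replication genes in limma, with 4, 5 and 2 of 42 at an unadjusted p under 0.05 in siVPS37A, siVPS37B and siVPS37C, while 1.83%, 1.72% and 0.496% of all genes were called and 13.2%, 16.1% and 8.08% had such an unadjusted p. Their median log2 differences were -0.07, -0.15 and -0.05. The largest single difference was that of CCNE2, cyclin E2, which measured 7.12, 7.26 and 6.99 TPM in siVPS37A libraries, against 13.01, 9.75 and 18.6 TPM in siCTRL libraries. The siVPS37A values were tightly grouped below all siCTRL values, but siCTRL spread widely and the log2 difference of -0.82 ± 0.30 (adjusted p = 0.21) was not called. With the batch block CCNE2 and RPA1 were called lower in siVPS37A (adjusted p = 0.0138 and 0.0474), and CDC7, DUT, MCM10, MCM3 and PCNA in siVPS37B (adjusted p = 0.0441, 0.0121, 0.0436, 0.0377 and 0.00852), where 1.87% and 4.78% of all genes were called lower in siVPS37A and siVPS37B. MCM5 had the largest positive difference in a single knockdown, with 144, 127 and 124 TPM in siVPS37B libraries, against 70.2, 114 and 104 TPM in siCTRL libraries. Those groups did not overlap, and the difference of 0.48 ± 0.19 (adjusted p = 0.195) did not pass the test. Leaving out siVPS37B replicate 3 gave 2 called genes in siVPS37B where the full set gave 0. The share of all genes called in that fit is not given here.

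The step from a pair to the triple knockdown was tested directly, with each pair group as the baseline. Adding siVPS37B to the AC pair lowered 4 of 42 genes, where 4.35% of all genes were called and 1.89% were called lower. TYMS was at 353, 358 and 356 TPM in siVPS37ABC libraries, against 513, 469 and 535 TPM in siVPS37AC libraries, a log2 difference of -0.50 ± 0.12 (adjusted p = 0.0121). GINS2 was at 35.2, 39.2 and 38.6 TPM, against 54.6, 53.0 and 56.5 TPM in siVPS37AC libraries, a difference of -0.53 ± 0.12 (adjusted p = 0.0121). Both genes were separate between the groups, as were the other 2. MCM10 was at 75.9, 79.5 and 77.0 TPM in siVPS37AC libraries, higher than the triple knockdown values above, with a difference of -0.45 ± 0.12 (adjusted p = 0.0333). MCM6 was at 123, 147 and 148 TPM in siVPS37ABC libraries, against 184, 202 and 195 TPM in siVPS37AC libraries, a difference of -0.48 ± 0.13 (adjusted p = 0.0371). The median difference of the 42 genes was -0.30, against -0.04 for all genes. The count was 13 with the batch block, all lower, where 6.41% of all genes were called lower. It was 0 without siVPS37AC replicate 1 or 3, 2 without siVPS37AC replicate 2, 1 without siVPS37ABC replicate 1 and 2 without siVPS37ABC replicate 2.

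Adding siVPS37A to the BC pair lowered 6 of 42 genes, where 12.0% of all genes were called and 4.55% were called lower. The triple knockdown values are those given above for TYMS, UHRF1, GINS2, CHAF1A, CDT1 and MCM10. In siVPS37BC libraries TYMS was at 478, 520.3 and 567 TPM and the log2 difference, siVPS37ABC minus siVPS37BC, was -0.55 ± 0.12 (adjusted p = 0.00266). UHRF1 was at 83.3, 76.8 and 60.7 TPM in siVPS37BC libraries, with the steepest difference of the set, -0.83 ± 0.18 (adjusted p = 0.0028). None of the 6 genes overlapped between siVPS37ABC and siVPS37BC. GINS2 was at 46.4, 52.6 and 61.4 TPM in siVPS37BC libraries (-0.49 ± 0.12, adjusted p = 0.00957). CHAF1A was at 71.2, 85.0 and 73.6 TPM in siVPS37BC libraries, and its log2 difference was -0.56 ± 0.15 (adjusted p = 0.0115). CDT1 was almost constant over the siVPS37BC libraries at 41.2, 40.9 and 40.7 TPM, with a difference of -0.46 ± 0.14 (adjusted p = 0.0307), and MCM10 was at 70.4, 74.0 and 81.4 TPM, with a difference of -0.41 ± 0.12 (adjusted p = 0.0309). CHAF1A passed here and not against siCTRL, where its siVPS37BC values had a positive difference of 0.31 ± 0.15 (adjusted p = 0.39). With the batch block the count was 19, of which 18 were lower and CCNE1 was higher (adjusted p = 0.0355), while 9.86% of all genes were called lower. It was 3 without siVPS37BC replicate 2 or 3.

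Adding siVPS37C to the AB pair gave 0 called genes of 42 in limma, with 3 at an unadjusted p under 0.05, where 1.04% of all genes were called and 8.95% had such an unadjusted p. The median difference was -0.14, against -0.04 for all genes. GINS2 came nearest, at 35.2, 39.2 and 38.6 TPM in siVPS37ABC libraries, against 47.7, 49.5 and 47.6 TPM in siVPS37AB libraries. These did not overlap, and the log2 difference was -0.35 ± 0.12 (adjusted p = 0.256). A missed threshold does not show that the AB pair and the triple knockdown act alike.

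Departure from the sum of the single log2 changes was tested for each pair. Limma called 0 of 42 genes in all 3 tests, with 1, 0 and 1 at an unadjusted p under 0.05 for AB, AC and BC, and 0.0% of all genes were called in any of them. An unadjusted p under 0.05 was found for 7.48%, 3.87% and 4.65% of all genes. The median departures of the 42 genes were -0.01, 0.11 and 0.15, against 0.06, 0.02 and 0.05 for all genes. MCM5 gave both of the unadjusted results, with departures of -0.91 ± 0.27 (adjusted p = 0.403) in AB and -0.62 ± 0.27 (adjusted p = 0.985) in BC. With the batch block 0.511%, 0.0% and 0.031% of all genes were called for AB, AC and BC. A departure combines more groups than a pairwise comparison and has a larger SE. A missed threshold does not show that the single changes add up.

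Transfection itself was checked by siCTRL against NT. Of the 42 genes 1 was called, higher, where 3.17% of all genes were called and 1.01% were called higher. ORC6, the smallest ORC subunit, measured 112, 93.4 and 110.2 TPM in siCTRL libraries, against 74.0, 77.4 and 67.4 TPM in NT libraries. The groups were separate, with a log2 difference of 0.52 ± 0.13 (adjusted p = 0.0234). CDC6 measured 77.3, 96.3 and 119 TPM in siCTRL libraries, against 63.1, 65.0 and 77.1 TPM in NT libraries, separate by a very small gap, and was called with the batch block (adjusted p = 0.0236), as was MCM10 (adjusted p = 0.0277), where 8.86% of all genes were. The ORC6 call was lost without siCTRL replicate 1 or 3 and without NT replicate 1 or 3. The median of the 42 genes was 0.01.

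**Figure D4:**
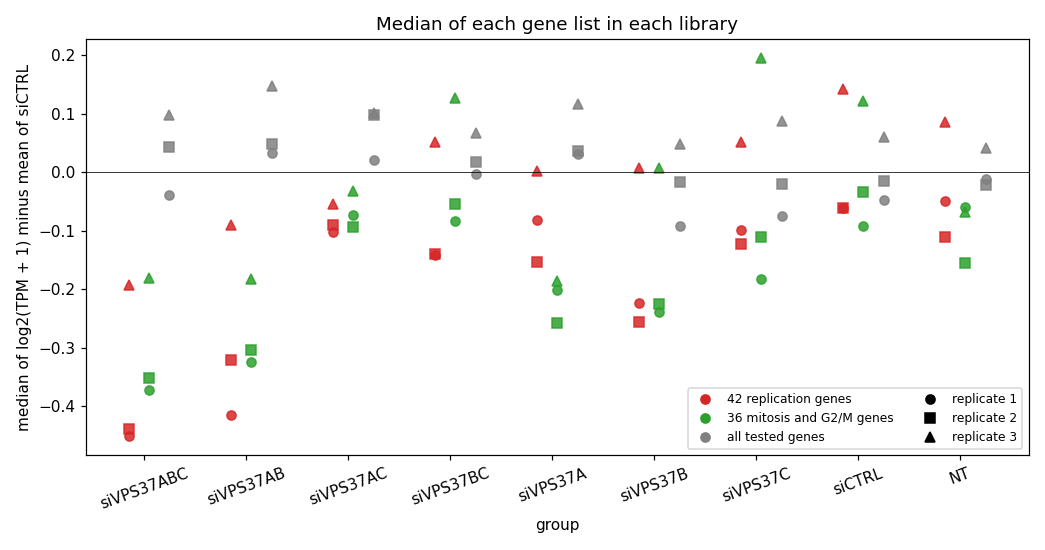
Median over the 42 replication genes (red), 36 mitosis and G2/M genes (green) and all tested genes (grey) of log2(TPM + 1) minus the siCTRL mean, for each of the 27 libraries, with replicates 1, 2 and 3 as circles, squares and triangles. The red points of siVPS37ABC lie at -0.45, -0.44 and -0.19 and those of siVPS37AB at -0.41, -0.32 and -0.09, while those of siCTRL lie at -0.06, -0.06 and 0.14.

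Replication genes also differed between batches within a group. After subtraction of group means, replicate 3 was the highest for 31 of the 42 genes (73.8%), against 52.0% of all genes tested. The mean deviation in replicate 3 was 0.38 log2 units for CCNE2, 0.35 for GMNN, 0.35 for DUT, 0.32 for PCNA and 0.30 for RFC3. These genes had the largest SEs of the 42, and 3 of them, CCNE2, DUT and PCNA, were called lower in siVPS37ABC with the batch block and not without it. Over the 27 libraries, Pearson's r between a gene and the mean of the other 41 had a median of 0.55 and ranged from -0.02 for RFC4 to 0.86 for MCM3. CDC7 at 0.82 and TYMS at 0.81 followed MCM3, and 24 of 42 genes exceeded 0.5. GINS3, with 0.01, stood apart together with RFC4. The libraries share batches and groups, so these coefficients describe the set and carry no p. After removal of the group means the median r was 0.51, with a range from -0.34 for RFC5 to 0.90 for CDC7, and 21 of 42 genes exceeded 0.5. Of the genes called lower in siVPS37ABC, CDT1 and UHRF1 then had negative coefficients, -0.12 and -0.08. The other called genes had positive ones, from 0.25 for MCM7 to 0.80 for MCM3.

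Words for E2F were frequent in the start regions of the whole set. A RefSeq start region was found for 39 of the 44 genes, 37 of them tested. At least 1 of the 4 words occurred in 20 of the 37 (54.1%), against 3.99% of the 27305 genes with a start region, 6.91% of the tested genes outside the set, 34.4% of 32 other replication genes and 10.3% of 29 mitosis and G2/M genes. Singly, TTTCCCGC occurred in 1.63%, TTTGGCGC in 0.652%, TTTCGCGC in 0.515% and TTTGCCGC in 0.607% of 35116 start regions, and where a gene had several regions the one with most words was used. In siVPS37ABC against siCTRL, 8 of 20 replication genes with a word and 3 of 17 without one were called lower, and their medians were -0.42 and -0.29. Among tested genes outside the set, 8.38% of those with a word and 7.26% of those without one were called lower, with medians of -0.04 and 0.04. The order of the medians was the other way round in both comparison lists. Among other replication genes 3 of 11 with a word and 10 of 21 without one were called lower, with medians of -0.23 and -0.47. The mitosis genes had medians of -0.09 with a word (3 genes) and -0.34 without one (26 genes), and 1 and 6 of them were called lower. TTTGAA, the core of the CHR element known from mitotic promoters, occurred in 5.41% of the tested replication genes and 69.0% of the tested mitosis genes. It occurred in 12.7% of all tested genes with a start region and in 18.2% of the 27305 genes. PRIM1, CHAF1B and MCM10 were the called genes with none of the 4 words in the window.

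**Figure D5:**
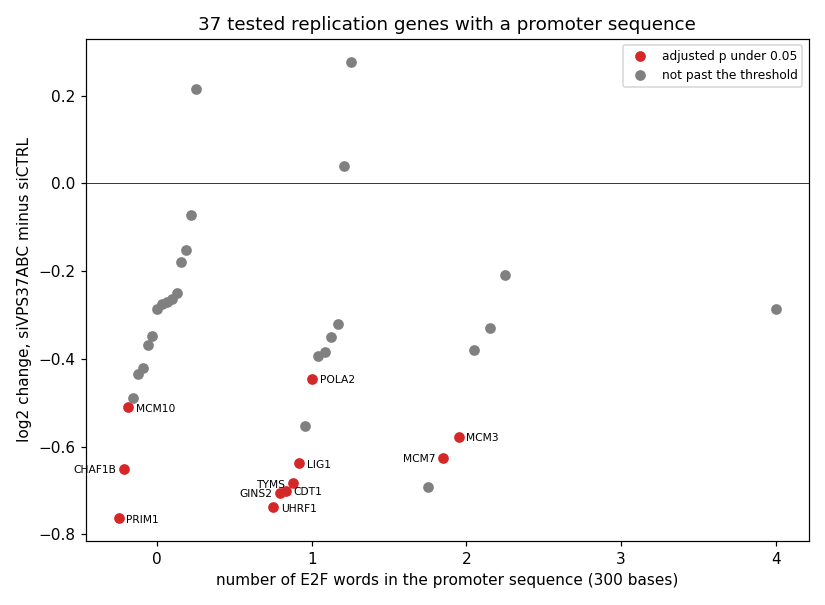
Log2 difference in siVPS37ABC against siCTRL (vertical) by the number of E2F words in the RefSeq start region (horizontal) for 37 tested replication genes; points at one number are spread sideways in order of value, red marks an adjusted p under 0.05 and grey the others. Called genes stand at 0, 1 and 2 words, and the gene with 4 words, MCM6, lies at -0.29.

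Other replication genes outside the set of 45 were compared between siVPS37ABC and siCTRL in the same fit: of 41 tested, 15 fell and 1 rose, with a median log2 difference of -0.43, where 8.32% of all genes were called lower and 13.6% higher. RRM2, the small subunit of ribonucleotide reductase, averaged 93.6 ± 25.8 TPM in siVPS37ABC libraries and 300.4 ± 66.2 TPM in siCTRL libraries (SD, n = 3 each), a log2 difference of -1.68 ± 0.19 (adjusted p = 3.45e-07). RRM2 also fell in siVPS37C alone, with a difference of -1.34 ± 0.19 (adjusted p = 0.000358), and was not called in siVPS37AB, at -0.42 ± 0.19 (adjusted p = 0.145). Adding siVPS37C to the AB pair lowered it, with a difference of -1.26 ± 0.19 (adjusted p = 0.000934). Of the 42 replication genes of the set, by comparison, 0 were called in siVPS37C and 8 in siVPS37AB. Its partner RRM1 in the same enzyme had the smaller difference given above. DCTPP1, the dCTP pyrophosphatase, fell in siVPS37ABC and in siVPS37C, with differences of -1.11 ± 0.17 (adjusted p = 3.63e-05) and -0.92 ± 0.17 (adjusted p = 0.00531). In siVPS37AB it was not called, at -0.25 ± 0.17 (adjusted p = 0.37), and adding siVPS37C to the AB pair lowered it, with a difference of -0.86 ± 0.17 (adjusted p = 0.0103). The histone chaperone ASF1B (-0.81 ± 0.11) and the helicase RECQL4 (-1.04 ± 0.19) fell in siVPS37ABC too. Both fell in siVPS37AB (adjusted p = 0.000932 and 0.0398) but were not called in siVPS37C (adjusted p = 0.968 and 0.71). POLD4, the small subunit of polymerase delta, was the one that rose, by 0.79 ± 0.20 (adjusted p = 0.00601). POLD4 averaged 27.78 TPM in siVPS37ABC libraries, 15.65 TPM in siCTRL libraries and 25.3 TPM in NT libraries. Its siCTRL libraries lay wholly below NT, with a log2 difference of -0.66 ± 0.20 that was not called (adjusted p = 0.0754). Of 36 mitosis and G2/M genes, 9 fell and 1 rose against the same shares of all genes, with a median of -0.34. TPX2, a spindle assembly factor, averaged 68.8 ± 1.70 TPM in siVPS37ABC libraries and 119 ± 4.11 TPM in siCTRL libraries (SD, n = 3 each), a log2 difference of -0.78 ± 0.12 (adjusted p = 2.55e-05). Among the mitosis genes, BIRC5, the survivin of the chromosomal passenger complex, differed by -0.76 ± 0.13 (adjusted p = 0.000131), and TOP2A, the topoisomerase that untangles sister DNA, by -0.80 ± 0.17 (adjusted p = 0.000947). CKAP2, of the same list, differed by -0.69 ± 0.14 (adjusted p = 0.000903).

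Of 22 tested genes that control entry into S phase, 4 fell and 2 rose in siVPS37ABC, with a median of -0.04. These 6 called genes are a share near the 21.9% of all genes. CDKN1A, the p21 inhibitor of cyclin-dependent kinases, measured 87.2, 88.8 and 103 TPM in siVPS37ABC libraries, against 12.8, 19.1 and 8.93 TPM in siCTRL libraries. This difference of 2.74 ± 0.26 (adjusted p = 2.5e-08) was opposite in sign to that of the replication genes and larger than any of theirs. CDKN1A was also lower in siCTRL than in NT, averaging 13.6 ± 5.12 TPM in siCTRL libraries and 28.8 ± 6.05 TPM in NT libraries (SD, n = 3 each), a difference of -1.07 ± 0.26 (adjusted p = 0.0199), and with NT as the reference its rise in siVPS37ABC was 1.67 ± 0.26 (adjusted p = 3.82e-05). CDKN2C, the p18 inhibitor of the cyclin D kinases, was at 7.66, 5.64 and 4.64 TPM in siVPS37ABC libraries, against 13.5, 14.5 and 15.2 TPM in siCTRL libraries, a difference of -1.16 ± 0.16 (adjusted p = 5.26e-06). SKP2, a ubiquitin ligase subunit that removes p27, and CCND1, cyclin D1, fell, with differences of -0.87 ± 0.14 and -0.64 ± 0.17. Of 7 genes of this list that averaged under 10 TPM over the 27 libraries, fitted without the filter, CDKN2B and CDKN1C rose and E2F8 fell. CDKN2B, the p15 inhibitor of the cyclin D kinases, measured 27.7, 19.1 and 13.3 TPM in siVPS37ABC libraries, against 1.77, 1.65 and 0.839 TPM in siCTRL libraries, a difference of 3.09 ± 0.25 (adjusted p = 4.77e-09), and 27.7, 14.0 and 17.4 TPM in siVPS37AB libraries, a difference of 3.07 ± 0.25 (adjusted p = 8.79e-09). Both knockdown groups lay wholly above siCTRL. CDKN1C, the p57 inhibitor, and E2F8, an E2F that represses transcription, differed by 0.49 ± 0.17 (adjusted p = 0.0448) and -0.62 ± 0.20 (adjusted p = 0.0302) in siVPS37ABC. Whether these changes have a part in the fall of the replication genes was not tested.

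Some of the named genes share genomic sequence with a neighbour, and the use of strand in the authors' counting is not given in the sources used here. TYMS and ENOSF1 overlap over 10593 bases, UHRF1 and ARRDC5 over 13741, RFC5 and WSB2 over 8762, CHAF1A and UBXN6 over 5825 and MCM7 and AP4M1 over 604 bases of RefSeq annotation. LIG1 and POLA2 overlap the noncoding genes LIG1-AS1 and LOC105369344, and TYMS also overlaps TYMSOS. Values of these genes are uncertain to that extent. WSB2 and UBXN6 had log2 differences of 0.30 ± 0.14 (adjusted p = 0.124) and 0.22 ± 0.21 (adjusted p = 0.505) in siVPS37ABC against siCTRL. These were opposite in sign to RFC5 and CHAF1A, and none of the genes was called in this comparison. No such values are given here for the neighbours of TYMS, UHRF1, MCM7, LIG1 and POLA2, which were called lower.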

How the data were processed

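RNA of 27 libraries was read with the Ion AmpliSeq human transcriptome panel, per the labels' protocols. The authors deposited 1 table of values for 10470 genes, named as DESeq2 normalized counts. Every column sums to 1000000, so the deposited values were taken as TPM. Such a total does not show whether values were scaled to transcript length, and TPM here stands for parts of that total. From such columns whole reads could not be recovered, and the depth per library is unknown. Counting intervals are therefore missing, and errors rest on the 3 replicates of a group. The submitters' processing notes list hg19, DESeq2 1.18.1 and HTSeq 0.6.0 without their roles, and no count test was run here. Of all values 11 were 0.

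All tests used log2(TPM + 1), a scale on which changes of low genes are understated. The 6458 genes averaging 10 TPM or more entered limma 3.58.1 (R 4.3.3) in a single fit of 9 group means (18 residual degrees of freedom), with the variance prior allowed to follow expression. P-values were adjusted by Benjamini-Hochberg within each comparison, with a threshold of 0.05. POLE, POLE2 and listed genes under 10 TPM come from the fit without the filter. The model was run on simulated data with normal noise and planted changes, with and without a batch effect. The outcome is not given here and is not used as support for the calls. Of 11 pairwise comparisons, 7 set a knockdown against siCTRL, 3 set the triple knockdown against a pair and 1 set siCTRL against NT; departures from the sum of single changes were tested 3 times. The knockdowns share the same siCTRL libraries. The labels call the replicates biological and nothing says more about separate cultures, so p-values measure the spread between these samples.

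Batch in the labels equals the replicate number, so the numbers pair the libraries. Deviations from the group mean correlated at 0.355 on average between libraries of the same number in different groups, with a lowest value of -0.386. Between libraries of different numbers the mean was -0.175. The deviations of a group cancel, so this negative mean follows from the subtraction and is no separate evidence of pairing. Alternatives were a block for this number, a term for the library number, NT in place of siCTRL, quantile normalization, other filters (none, or 50 TPM), a pseudocount of 8, fits of only the groups compared, and leaving out each library.

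Per-library values are given for each replication gene past the threshold, and counts, ranges or differences for the others; for the 3 other lists, at most 4 genes with the smallest adjusted p, and POLD4, CDKN2B, CDKN1C, E2F8 and the single markers, chosen after their values were seen. The per-library values of GINS3, CDC6, PCNA, FEN1, DUT, CHAF1A, CCNE2 and MCM5 in comparisons that did not call them, and the overlapping genes, were also chosen after their values were seen. The genes, lists, words and tests were chosen with earlier results of these data known. Start regions and overlaps come from RefSeq on GRCh38.p14, which is not the build of the processing notes, and serve for sequence only.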

Additional observations from a re-analysis of the deposited data

How the results depend on the processing

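For the 11 genes called lower in siVPS37ABC against siCTRL, 132 of 150 refitted values stayed past the threshold, 18 missed it and none changed sign. Counts of called replication genes moved by more than 1.5 times as follows. The replicate block gave 21 in siVPS37ABC, 13 in siVPS37AB, 4 in siVPS37AC, 2 in siVPS37A and 5 in siVPS37B against siCTRL, 3 in siCTRL against NT, and 13 and 19 in siVPS37ABC against siVPS37AC and siVPS37BC; it changed no other count by as much. A mean of at least 50 TPM gave 7, 5 and 0 in siVPS37ABC, siVPS37AB and siVPS37AC. Called genes with lower means were not in that fit. They were CDT1, CHAF1B, PRIM1 and POLA2 (41.7, 20.25, 37.4 and 38.9 TPM), RFC5 (49.2 TPM) and GINS3 (29.8 TPM). The 7 in siVPS37ABC were the rest of its called genes, so none that stayed in the fit lost its call. With NT as reference siVPS37AB had 12 called genes, 10 lower and 2 higher, of which 5 were among its 8 against siCTRL, siVPS37AC had 4, siVPS37A 2, and siVPS37B, siVPS37C and siVPS37BC 1 each. The library number term gave 6 in siVPS37AC, 4 in siCTRL against NT, and 13 and 11 in siVPS37ABC against siVPS37AC and siVPS37BC. With only the groups compared siVPS37AC and siCTRL against NT had 0 and siVPS37ABC against siVPS37AC had 1. The cause of the other changes in count was not tested. Apart from the shares given above, the shares of all genes called under these settings, or with 1 library left out, are not given here. Such counts alone do not show whether the replication genes moved more than all genes did. Quantile normalization changed the split of all called genes in siVPS37ABC against siCTRL to 777 higher and 720 lower, where the unscaled values gave 880 and 537, and called 15 replication genes, all lower.

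Leaving out 1 library gave 8 to 13 called genes in siVPS37ABC, 3 to 8 in siVPS37AB, 0 to 1 in siVPS37AC, 0 to 2 in siVPS37B and 0 to 0 in siVPS37A, siVPS37C and siVPS37BC against siCTRL, 0 to 1 in siCTRL against NT, 0 to 0, 0 to 4 and 3 to 7 in siVPS37ABC against siVPS37AB, siVPS37AC and siVPS37BC, and 0 to 0 in the 3 departure tests. Within library number 88, an alternative chosen after seeing the data, the median of the 42 genes in siVPS37ABC minus siCTRL was -0.21 and in siVPS37AC minus siCTRL 0.04. In both, the knockdown library was of batch 3 and the siCTRL libraries of batches 1 and 2, so batch was not matched. The unknown depth, 3 libraries a group and 1 siRNA sequence per paralog limit what can be read from small differences.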
